A study of Homo sapiens with 3 samples.

Results

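The alpha-arrestin genes TXNIP, ARRDC1, ARRDC2, ARRDC3 and ARRDC4 were examined in PANC-1, a cell line from a human pancreatic ductal carcinoma, exposed to the phosphatase inhibitors cantharidin and okadaic acid. Of the 19699 genes that could be named on the array, these 5 are the family members considered, and all 5 were measured. The family was chosen on the fall of TXNIP in these same arrays, so the signals of its members are given as a description. Cells were controls or received cantharidin or okadaic acid for 24 h, and the sample labels give 20 µM for both agents. What the control cells received in place of an agent is not given in the sources used here. Total RNA of each condition was labelled with Cy3 and hybridised to 1 array per condition, on which the brightness of a spot measures the transcript that binds its probe. With 1 array per condition there is no replicate check, and no test between conditions was possible. Both agents inhibit protein phosphatase 2A (PP2A), and the question here was how far this family responded alike to them.

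Alpha-arrestins are adaptor proteins with an arrestin fold. Most members recruit ubiquitin ligases of the NEDD4 family to membrane proteins, which are then internalised or sorted. TXNIP, the best known member, also binds and inhibits the redox protein thioredoxin, and it limits glucose uptake by driving the glucose transporter GLUT1 into the cell. Transcription of TXNIP and ARRDC4 is known to follow glucose supply through the factors MondoA and ChREBP, which bind a carbohydrate response element made of paired E-box-like sequences.

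The 3 arrays lay on 1 slide. Signals were scaled to the 75th percentile of each array, which was at intensities between 713 and 936. The faintest signal that the scanner software called well above background ranged from 21.9 intensity units with cantharidin to 58.0 with okadaic acid. Epithelial and ductal markers were well above background for 7 of 7 genes in control cells and for 6 of 7 under either agent, with CDH1 missing from both treated arrays, and the mesenchymal gene VIM reached 311685 in control cells. Among markers of other cells, the control array detected 3 of 4 acinar, 2 of 4 endocrine, 2 of 3 endothelial and 2 of 3 fibroblast genes, while CPA1, SST, PECAM1 and LUM stayed undetected in every condition. COL1A1 was detected in control cells alone, and the summed fibroblast intensity was 609 there, 59.7 with cantharidin and 124 with okadaic acid. The summed endothelial intensity was 2261, 1315 and 1589 in the same order. All 4 leukocyte markers were detected throughout, with summed intensities of 3722 in control cells, 4602 with cantharidin and 13744 with okadaic acid, where the brightest of them, CD68, reached 12731. The part of any of these markers in the values below was not tested.

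Each member was represented by a single probe with 1 spot on each array, and each spot was well above background on all 3 arrays. Errors on intensities are those that the scanner software assigns to a spot. Errors on log2 differences are the SD expected from repeat spots of other probes at the same brightness, and they cover spot noise only. The software error, combined over both arrays of a difference, was larger for ARRDC1, ARRDC2 and ARRDC3. It was also larger for TXNIP with okadaic acid against control, at 0.21, and reached 0.20 for ARRDC1 there. For ARRDC4 and for TXNIP with cantharidin it was smaller than the spot noise.

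TXNIP fell under both agents. Its intensity was 4131 ± 413 in control cells, 38.9 ± 6.48 under cantharidin and 342 ± 36.2 under okadaic acid. The 3 arrays were thus well separated, with control highest and cantharidin lowest. After scaling, the signal fell 96.5-fold with cantharidin (log2 difference -6.59 ± 0.38) and 14.4-fold with okadaic acid (-3.85 ± 0.11). As RNA from whole cultures was measured, fewer cells with the transcript and less transcript per cell cannot be told apart.

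The control value was 118 times the faintest detected signal of its array, the okadaic acid value 5.89 times and the cantharidin value 1.78 times. Before any subtraction the TXNIP spot had a median brightness of 4215 in control cells, 116 with cantharidin and 498 with okadaic acid, against local backgrounds between 25 and 31.5. The software's fitted background averaged 90.0, 72.6 and 123 on these arrays. The size of the fall under cantharidin was thus read from a dim spot. With the normexp background correction it was 29.9-fold (log2 difference -4.90), and in the deposited normalized table it was 132-fold (-7.04). Under okadaic acid the log2 difference lay between -3.97 and -3.40 over the alternatives.

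Among 16644 genes compared for cantharidin, only RAB26 and CCDC34 had lower differences than TXNIP, and with the normexp correction 10 genes did. For okadaic acid 82 of 16166 genes had lower differences, and this number lay between 43 and 132 in the alternatives. TXNIP thus stood at the extreme of the cantharidin comparison and less far out under okadaic acid.

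No other member showed such a fall. ARRDC4, at 1.45 times the faintest detected signal in control cells, was too dim to show one. ARRDC3, which promotes ubiquitination of integrin β4, rose under okadaic acid. Its intensity was 436 ± 44.3 in control cells, 566 ± 56.9 under cantharidin and 1368 ± 137 under okadaic acid. The order was control, cantharidin, okadaic acid. The okadaic acid signal was 2.63-fold above control (log2 difference 1.40 ± 0.10), and it stayed past 1.5-fold in all 10 alternatives that apply to single genes, between 2.37-fold and 3.14-fold. Under cantharidin the difference was 1.43-fold (0.52 ± 0.14), which did not reach 1.5-fold except when arrays were scaled on probes well above background everywhere, where it was 1.501-fold (0.59). The antisense transcript ARRDC3-AS1 did not stand well above background in any condition.

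ARRDC2 was highest under cantharidin after scaling. It gave intensities of 326 ± 33.8 in control cells, 493 ± 49.8 under cantharidin and 510 ± 53.1 under okadaic acid. The cantharidin signal was 1.66-fold above control (0.73 ± 0.15) and the okadaic acid signal 1.31-fold above control (0.39 ± 0.12). With the normexp correction the cantharidin value was 1.35-fold and no longer past 1.5-fold, while without scaling the okadaic acid value was 1.56-fold.

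ARRDC4, the member most like TXNIP in its known control by glucose, was dim on all arrays. The intensities were 50.8 ± 8.84 in control cells, 32.8 ± 6.38 under cantharidin and 92.9 ± 15.5 under okadaic acid, which is between 1.45 and 1.60 times the faintest signal well above background. Cantharidin was lowest and okadaic acid highest. The faintest detected signals, 35.0 in control cells, 21.9 with cantharidin and 58.0 with okadaic acid, ranked the arrays in the same order. Their part in the ARRDC4 differences was not tested. Relative to control the signal was 1.41-fold lower under cantharidin (-0.50 ± 0.51), a difference within its spot noise. It was 1.53-fold higher under okadaic acid (0.61 ± 0.36), but the normexp correction left 1.11-fold. Over the alternatives its lowest log2 difference under okadaic acid was 0.15. At 1.45 times the faintest detected signal in control cells, the probe had little room to show a fall. Whether ARRDC4 followed TXNIP down therefore cannot be read from it.

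ARRDC1, which recruits the ESCRT machinery to the plasma membrane to release vesicles, differed least from control under cantharidin. Its intensity was 832 ± 83.5 in control cells, 788 ± 78.9 under cantharidin and 1191 ± 120 under okadaic acid. The scaled signals lay close together, at 1.04-fold (0.06 ± 0.13) and 1.20-fold (0.26 ± 0.09) of control. Without scaling the small cantharidin difference turned to -0.08.

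**Figure D1:**
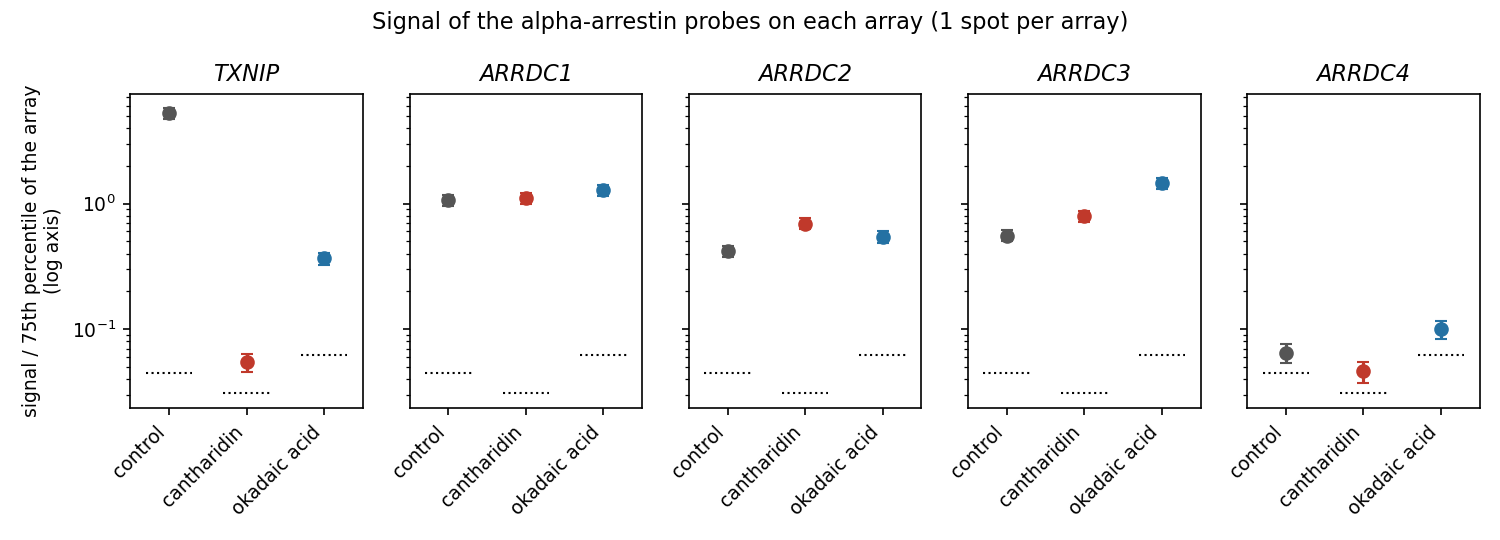
Signal of each alpha-arrestin probe divided by the 75th percentile of its array, on a log axis, for the control, cantharidin and okadaic acid arrays. Points are single spots, bars are the scanner software's error and dotted lines are the lowest signal well above background on that array. TXNIP drops from 5.27 to 0.0546 and 0.365, while ARRDC4 lies near the dotted line on every array.

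Counted at 1.5-fold, 1 of the 5 members was lower under cantharidin, where 34.1% of all genes compared were, and 1 was higher, where 27.5% of all genes were. Under okadaic acid 1 member was lower and 2 were higher, against 28.8% and 28.1% of all genes. The 2 higher members were ARRDC3 and the dim ARRDC4. Since the family was chosen on these comparisons, the shares stand side by side as a description. The median of the members was 0.06 for cantharidin and 0.39 for okadaic acid, and over all genes it was -0.16 and 0.01. The members spread over a wide range, -6.59 to 0.73 with cantharidin and -3.85 to 1.40 with okadaic acid, with TXNIP alone at the low end. Both comparisons used the same control array.

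**Figure D2:**
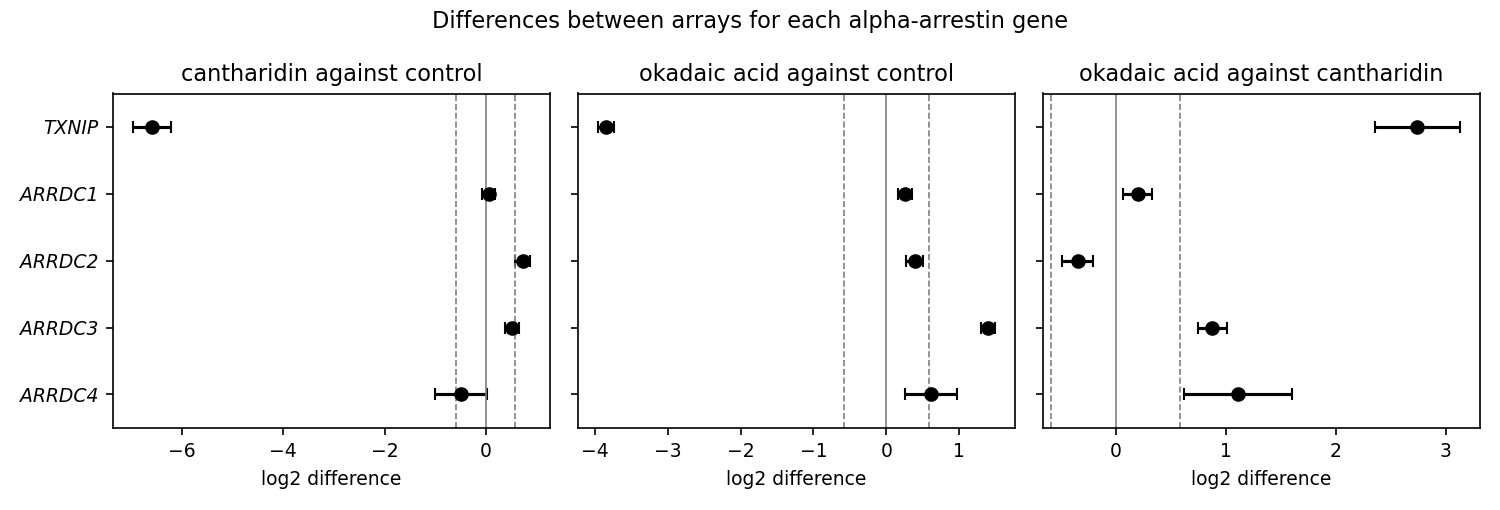
Log2 differences of the 5 members for each pair of arrays, with bars of 1 SD of spot noise and dashed lines at 1.5-fold. TXNIP lies at -6.59 and -3.85 against control, ARRDC3 passes the upper line under okadaic acid at 1.40, and the bars of ARRDC4 are the widest against control.

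Cantharidin and okadaic acid were then set against each other directly, a comparison that does not use the control array. The labels of the single samples give the same dose for both agents, whereas the wording of the series design can be read as giving it for cantharidin alone, and the time was the same. TXNIP was 6.69-fold higher under okadaic acid than under cantharidin (2.74 ± 0.39), and with the normexp correction 2.84-fold higher. ARRDC4 was 2.16-fold higher (1.11 ± 0.49), falling to 1.29-fold with that correction, and ARRDC3 was 1.84-fold higher (0.88 ± 0.13), between 1.66-fold and 2.42-fold in the alternatives. In all, 3 of 5 members were at least 1.5-fold higher under okadaic acid and none lower, where 29.5% and 22.3% of all genes were. The 3 members included the dim ARRDC4. ARRDC1 differed by 1.15-fold (0.20 ± 0.13). ARRDC2 went the other way at -0.34 ± 0.14 and turned to 0.05 without scaling. The median of the members was 0.88, against 0.13 over all genes.

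The promoters of the members were examined for the sequences that glucose-responsive and FOXO factors are known to bind. RefSeq windows (GRCh38.p14) from 250 bases before to 50 bases after a start were found for all 5 genes, 8 windows in all. The windows were searched on both strands for the E-box CACGTG, the CCAAT box, the TATA box as TATAAA and the FOXO motif GTAAACA. Paired CACGNG elements spaced 5 bases apart, a form of carbohydrate response element, were also searched for. None of these motifs overlapped another in the windows printed here. The bases upstream of the start are shown for TXNIP as the member that fell, for ARRDC4 as the other glucose-responsive member and for ARRDC3 as the member with the largest rise of these 5, 5′ to 3′, with motif matches in capitals, the spacer of a pair included.
TXNIP, chr1:145996580-145996829, minus strand: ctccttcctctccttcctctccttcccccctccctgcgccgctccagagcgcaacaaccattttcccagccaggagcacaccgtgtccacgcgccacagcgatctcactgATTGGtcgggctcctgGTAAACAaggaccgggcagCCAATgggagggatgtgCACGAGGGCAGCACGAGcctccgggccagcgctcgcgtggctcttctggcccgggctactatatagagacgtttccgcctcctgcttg
ARRDC4, chr15:97960453-97960702, plus strand: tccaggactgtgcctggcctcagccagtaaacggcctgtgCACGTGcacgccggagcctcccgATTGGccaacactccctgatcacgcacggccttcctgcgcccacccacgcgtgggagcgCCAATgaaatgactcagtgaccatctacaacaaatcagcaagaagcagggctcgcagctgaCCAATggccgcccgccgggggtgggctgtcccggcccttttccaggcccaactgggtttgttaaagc
ARRDC3, chr5:91380098-91380347, minus strand: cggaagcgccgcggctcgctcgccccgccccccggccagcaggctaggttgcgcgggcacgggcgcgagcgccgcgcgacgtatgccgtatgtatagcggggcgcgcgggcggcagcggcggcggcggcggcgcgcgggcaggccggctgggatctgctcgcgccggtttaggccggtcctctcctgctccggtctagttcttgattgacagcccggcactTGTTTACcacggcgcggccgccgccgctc

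The TXNIP sequence held the paired CACGNG elements, the first of them at position -88 relative to the start. Such a pair was present in 20 of the 35116 windows of all genes, or 0.057%. It also held GTAAACA, present in 3.42% of all windows, and 2 matches to CCAAT, which occurs in 34.6%. A second TXNIP window, at a start further downstream, held none of the motifs. The ARRDC4 sequence had no such pair but held CACGTG, present in 7.26% of windows, and 3 matches to CCAAT. Only this exact form of the pair was searched, so other forms of a carbohydrate response element would be missed. The share of 0.057% likewise covers this form alone. In the ARRDC3 sequence GTAAACA was matched on the opposite strand, and its other window held CCAAT. ARRDC1 had CCAAT. Of the 2 ARRDC2 windows, 1 had CCAAT and the TATA box, which is in 11.5% of all windows, and the other had none. Whether any of these sequences bears on the signals of the members was not tested.

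Genes whose signals moved most like TXNIP were sought among 14217 other genes well above background on all 3 arrays, by the distance between pairs of log2 differences from control. The nearest was CCDC34, a coiled-coil gene, at -6.71 under cantharidin and -4.32 under okadaic acid, 0.49 log2 units from TXNIP. Its other probes gave smaller falls, up to -2.06 and -1.26. It was followed by RAB26, a small GTPase of vesicle traffic (-7.28 and -3.67), NEK2, a centrosomal kinase (-5.99 and -4.39), IGFBP4, a binding protein of insulin-like growth factors (-5.95 and -4.43), and BUB1, a kinase of the spindle checkpoint (-6.41 and -4.75). RAB26, IGFBP4 and BUB1 had 1 probe each, and both probes of NEK2 fell alike. Of these genes only RAB26 fell less than TXNIP under okadaic acid while falling more under cantharidin. Under cantharidin most of these genes were dim, at 44.4 for CCDC34, 58.7 for RAB26, 35.9 for NEK2 and 59.5 for BUB1. IGFBP4 was brighter, at 470, and the faintest detected signal of that array was 21.9. The sizes of the falls of the dim genes were thus, as for TXNIP, read from spots near that limit. This likeness rests on 3 arrays.

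**Figure D3:**
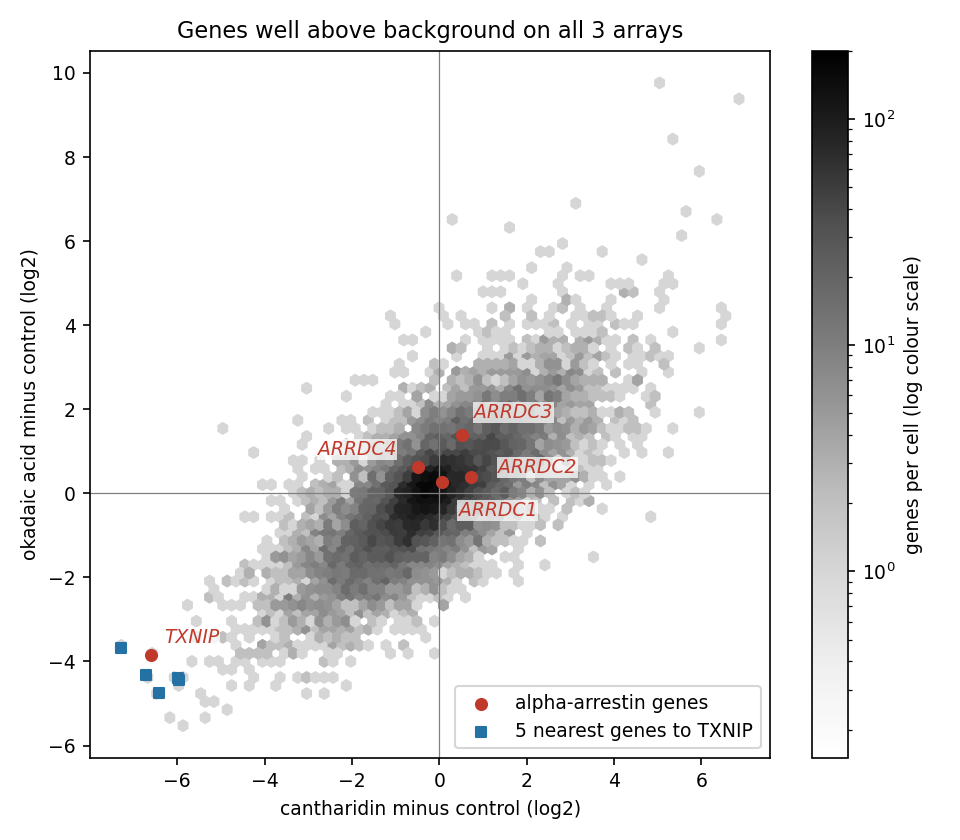
Log2 differences from control under cantharidin (horizontal) and okadaic acid (vertical) for genes well above background on all 3 arrays, with darker cells holding more genes. Both axes share the control array. TXNIP sits at the lower left beside its 5 nearest genes, while the 4 ARRDC genes lie far from it, with ARRDC3 the highest of them at 1.40 on the vertical axis.

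Other genes with an arrestin fold were compared next. The counts of this and the following lists stand beside the shares over all genes. These were 27.5% higher and 34.1% lower under cantharidin, and 28.1% higher and 28.8% lower under okadaic acid. Under cantharidin 5 of 8 measured genes were at least 1.5-fold lower and none higher (median -1.05), and under okadaic acid 4 were lower and 1 higher (-0.53). ARRB1, encoding β-arrestin 1, had intensities of 478 in control cells, 6.26 with cantharidin and 136 with okadaic acid. Not well above background with cantharidin, it fell at least 19.9-fold there and 4.19-fold with okadaic acid. As for TXNIP, the cantharidin array was the lowest of the 3. VPS26A and VPS26C, subunits of endosomal sorting complexes, fell 1.98-fold and 2.15-fold with cantharidin and 2.15-fold and 2.29-fold with okadaic acid, although another VPS26C probe gave 0.02 under cantharidin. ARRDC5, the remaining alpha-arrestin, was well above background in control cells alone, at 56.5, and was at least 2.34-fold lower under cantharidin.

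The 3 factors that drive TXNIP did not all fall with it. MLX, the shared partner of MondoA and ChREBP, fell 1.63-fold with cantharidin and 2.00-fold with okadaic acid. MLXIP (MondoA) and MLXIPL (ChREBP) fall outside the naming rule and were added after their values were seen. MLXIP was 2.24-fold higher under cantharidin on its brighter probe, but its other probe gave -1.63. Under okadaic acid these probes gave log2 differences of 0.49 and -0.53. MLXIPL was 1.37-fold and 1.38-fold higher. Of 11 other regulators of TXNIP, 4 were higher and 1 lower under cantharidin (median 0.28), where 27.5% and 34.1% of all genes were. Under okadaic acid 7 of 10 were higher and 2 lower (0.73), against 28.1% and 28.8% of all genes. FOXO1, a forkhead factor, went in opposite directions, falling 2.22-fold with cantharidin and rising 2.09-fold with okadaic acid. Of the subunits of AMPK, the kinase that marks TXNIP for degradation, PRKAB2 was 2.18-fold and 2.19-fold higher and PRKAG2 1.77-fold and 1.55-fold higher under cantharidin and okadaic acid. Other subunits, added after their values were seen, did not all rise. PRKAG1 fell 4.79-fold with okadaic acid, and PRKAA1, not well above background there, fell at least 1.95-fold. With cantharidin PRKAB1 rose 2.78-fold and PRKAA2 at least 1.73-fold, while PRKAG1 had a log2 difference of 0.28. The PRKAA1 probes disagreed with cantharidin, at 0.43 on the brighter and -3.08 on the other.

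Other targets of the carbohydrate response split. Of 8 measured genes, 2 were higher and 3 lower under cantharidin (median -0.28), and 2 higher and 2 lower under okadaic acid (-0.31). The lipid synthesis genes FASN and ACACA fell with TXNIP, FASN by 5.87-fold and 2.69-fold and ACACA by 7.48-fold and 3.56-fold under cantharidin and okadaic acid. A second ACACA probe rose under cantharidin (0.70). RGS16, a regulator of G-protein signalling, rose instead, by 9.25-fold and 33.6-fold, and ACACB, a second acetyl-CoA carboxylase, by 2.92-fold and 2.30-fold. A second RGS16 probe gave smaller rises, with log2 differences of 1.84 and 3.62.

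In the thioredoxin system, which TXNIP restrains, 2 of 16 genes were higher and 6 lower under cantharidin (median -0.31), and 4 were higher and 6 lower under okadaic acid (-0.03). TXN, encoding thioredoxin itself, was added after its values were seen and had log2 differences of -0.35 with cantharidin and 0.14 with okadaic acid. Mitochondrial PRDX3 was 3.70-fold and 3.97-fold lower. TXNRD3, a thioredoxin reductase, fell 3.71-fold with cantharidin and, being not well above background with okadaic acid, at least 5.56-fold there. MSRB2, a methionine sulfoxide reductase, was 2.03-fold and 5.97-fold lower, but its second probe gave 0.02 under okadaic acid. GLRX2, a mitochondrial glutaredoxin, was 2.54-fold and 3.58-fold higher. The cytosolic glutaredoxin GLRX fell 4.43-fold with cantharidin and rose 2.29-fold with okadaic acid.

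Among glucose transporters and hexokinases, 3 of 12 genes were higher and 5 lower under cantharidin (median -0.48), and 1 of 11 was higher and 2 lower under okadaic acid (0.13). HK2, which traps glucose in the cell by phosphorylation, was 5.66-fold and 2.63-fold higher. SLC2A4, the insulin-responsive transporter GLUT4, was well above background in control cells alone and was at least 12.0-fold and at least 5.93-fold lower. SLC2A8 was 2.62-fold and 2.91-fold lower. SLC2A1, the GLUT1 gene, was added after its values were seen and did not pass 1.5-fold with either agent (-0.48 and 0.13).

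The ubiquitin ligases of the NEDD4 family, through which alpha-arrestins act, and their adaptors NDFIP1 and NDFIP2 had 2 of 9 genes higher and 6 lower under cantharidin (median -0.94), and 2 higher and 3 lower under okadaic acid (0.31). ITCH, a ligase that binds TXNIP, was well above background in control cells alone. It fell 5.86-fold as measured with cantharidin and at least 3.25-fold with okadaic acid. The 5.86-fold is not a lower limit, as the undetected signal, at 24.5, lay above the faintest detected signal of 21.9. WWP1 was 1.76-fold and 2.55-fold lower, HECW2 3.62-fold and 1.73-fold lower, and SMURF1 2.52-fold and 2.11-fold higher. Of 11 cargo proteins and vesicle partners, 6 were higher and 1 lower under cantharidin (0.64), and 3 higher and 3 lower under okadaic acid (-0.23). The ESCRT genes HGS and CHMP4B were 6.14-fold and 4.40-fold higher under cantharidin and 3.16-fold and 4.89-fold higher under okadaic acid. SLC11A2, an iron transporter, was 1.73-fold and 2.13-fold lower, with a second probe at -0.09 under cantharidin.

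TXNIP is also known to bind the inflammasome sensor NLRP3. Of 6 measured inflammasome genes, 2 were higher and 1 lower under either agent, with medians of -0.35 for cantharidin and 0.05 for okadaic acid. PYCARD, the adaptor ASC, fell by 12.8-fold and 7.15-fold, and IL18 rose by 4.22-fold and 1.65-fold. Over all genes the medians were -0.16 and 0.01, with 27.5% higher and 34.1% lower under cantharidin and 28.1% higher and 28.8% lower under okadaic acid, against which the counts of all these lists are to be read.

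**Figure D4:**
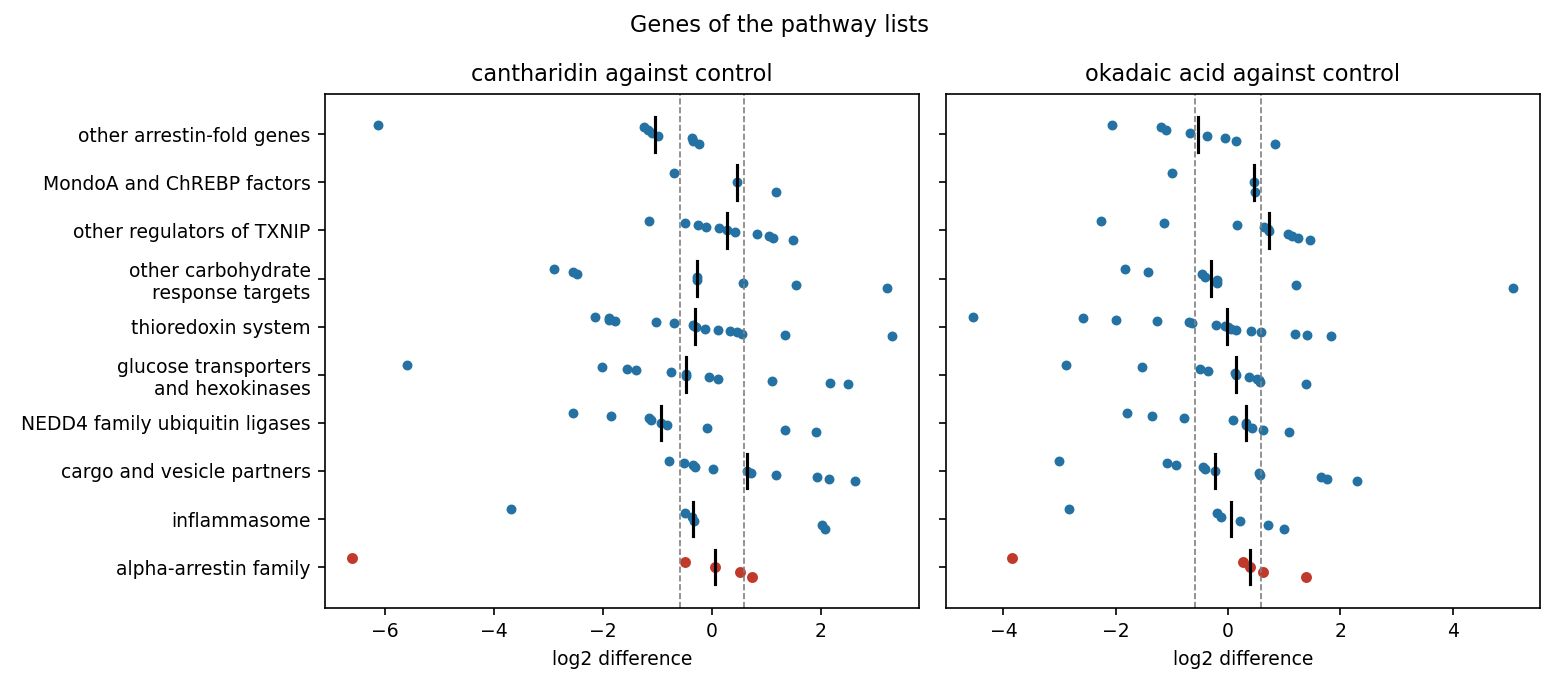
Log2 differences from control under cantharidin (left) and okadaic acid (right) for the genes of each pathway list and, in red, for the 5 alpha-arrestin genes. Points are genes, black bars are list medians and dashed lines mark 1.5-fold, and signals that were not well above background are plotted as measured. Most lists spread to both sides of 0.

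**Figure D5:**
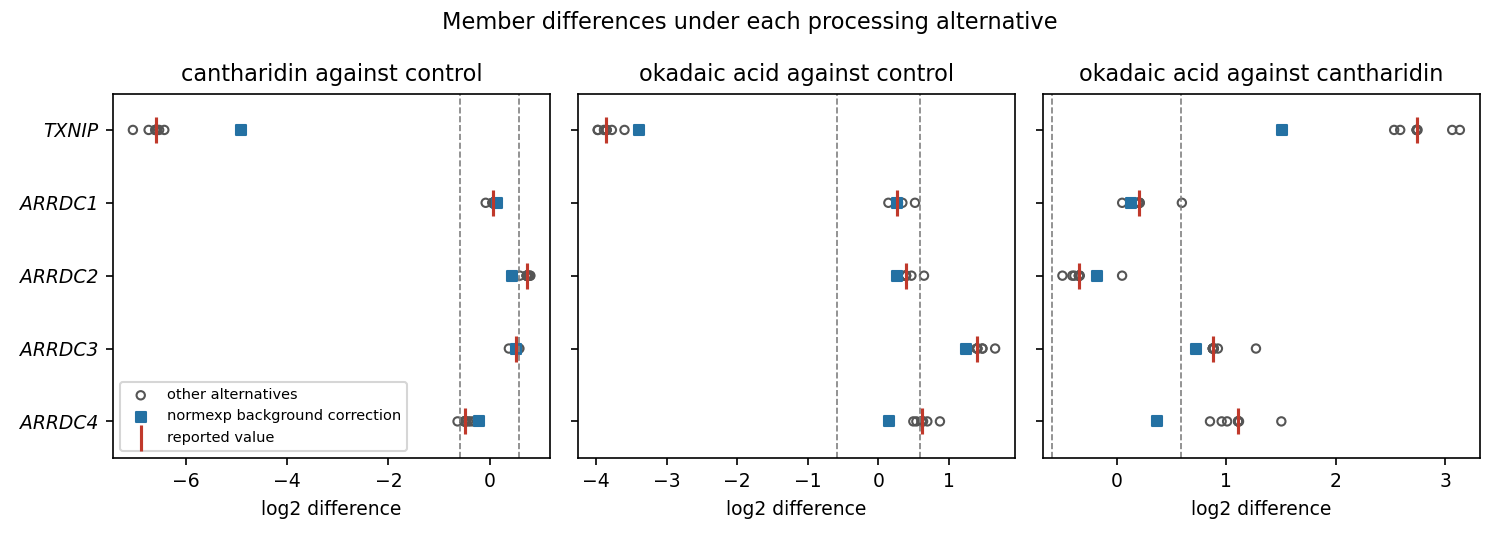
Log2 differences of the 5 members as reported and under each alternative processing, for the 3 pairs of arrays, with dashed lines at 1.5-fold. The normexp background correction moves TXNIP from -6.59 to -4.90 under cantharidin and takes ARRDC4 below 1.5-fold for okadaic acid in both its comparisons.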

How the data were processed

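Gene expression was measured on 3 Agilent 1-colour arrays, one per condition, with conditions read from sample titles. Spot intensity values deposited by the authors came from Feature Extraction 11.0.1.1 (probe annotation hg19) and were background-subtracted and detrended within each array and not scaled between arrays, with flags for outliers and for signal well above background. Their normalized log2 values, also deposited, were made in a way not given in the sources used here and served as an alternative.

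Spots with outlier flags were left out, log2 intensity was averaged per probe (34041 probes) and the 75th percentile of each array was subtracted. No pseudocount was used. Probe accessions, stripped of their version, were looked up among RefSeq transcripts (GRCh38.p14), giving names to 25705 probes and 19699 genes, and a gene was represented by its brightest probe. A gene entered a comparison when either array showed it well above background, and was called at 1.5-fold, the threshold of the study. A probe not well above background on 1 array gave a bound ("at least"), from the higher of its signal and the lowest signal well above background. An undetected signal can lie above that lowest signal, as for ITCH with cantharidin, so these bounds are approximate. Spot noise is the pooled SD of the 100 probes nearest in brightness among 999 probes with 10 spots. Named genes were the 5 members, up to 4 genes per list past 1.5-fold under both agents in the same direction and up to 2 in opposite directions, by the smaller of their changes, and the 5 genes nearest to TXNIP. The members and lists were chosen with earlier results of these data known. PRDX2 and SLC2A14 had no matched probe, and 1 gene that the rule names is not reported here. The 11 alternatives covered scaling (median, percentile of detected probes, quantile, none), normexp with an offset of 50 on median spot and background intensity, the deposited table, no filter, a filter on all 3 arrays, dim signals at the array floor, a 2-fold threshold and the median over probes. The counting step was tested on simulated data. Software comprised Python 3.11.15 (pandas 2.3.3, numpy 2.4.6, matplotlib 3.10.9) and limma 3.58.1 in R 4.3.3. The number of arrays limits the precision, and slide position and condition cannot be told apart.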

Additional observations from a re-analysis of the deposited data

How the results depend on the processing

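Each member had 1 probe that was well above background on all arrays, so the filters, the array floor and the median over probes left the member values as they were, and the scalings, the normexp correction and the deposited table were the alternatives that could move them. TXNIP and ARRDC3 kept their directions in all 3 comparisons under the 10 alternatives that apply to single genes. With cantharidin, the members past 1.5-fold were 1 under the normexp correction and 1 at a 2-fold threshold in place of 2, with 0 higher in either case, since ARRDC2 was lost. Scaling on detected probes gave 2 higher members, and no scaling gave 2 lower. With okadaic acid, 1 member was higher in place of 2 under median scaling, quantile normalization, the normexp correction and a 2-fold threshold, in each of which ARRDC4 was no longer past the threshold. The counts for okadaic acid against cantharidin stayed within 1.5 times of those reported. No paired analysis was possible because each condition had 1 array. Spots near the background limit what can be said of ARRDC4 on all arrays and of TXNIP under cantharidin.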

Other observations

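Several genes of the lists moved under a single agent on their brightest or only probe. They were chosen here after their values were seen. SRXN1, which reactivates oxidised peroxiredoxins, was 9.82-fold higher under cantharidin, from 6965 to 62154 intensity units, and 1.16-fold lower under okadaic acid, at 7138. NLRP3 had log2 differences of 2.01 with cantharidin and 0.21 with okadaic acid. Its other probe gave 0.89 and -0.63, and so passed 1.5-fold under both agents, in opposite directions. ITGB4, which encodes the integrin that ARRDC3 targets, fell 8.03-fold with okadaic acid, from 4085 to 607 intensity units. With cantharidin its log2 difference was -0.50. ARRDC3 acts on the integrin protein, whereas the arrays measured RNA, and a link between ARRDC3 and the ITGB4 signal was not tested.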
